A study of Mus musculus with 2 samples.

Results

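The genes described here are 6 CC chemokine ligands (*Ccl2*, *Ccl3*, *Ccl4*, *Ccl6*, *Ccl9* and *Ccl12*) and 3 chemokine receptors of microglia (*Cx3cr1*, *Ccr1* and *Cxcr4*), chosen by name for their role in chemokine signalling. They are 9 of the 13549 genes in the deposited table, and all 9 were listed there with reads. The material was microglia sorted from mouse retina at postnatal day 5. All animals had the genotype CD11c-Cre-gfp;Rosa-TDTom, in which the promoter of the integrin subunit CD11c drives a Cre recombinase with GFP and Cre switches on a permanent TdTomato reporter. Cells positive for GFP and TdTomato (Cd11c-active, 4041 cells) were using the promoter when sorted, whereas cells with TdTomato and no GFP (Cd11c-lineage, 5441 cells) would have used it earlier. Both came from a pool of 8 retinas, labelled as 4 female and 4 male, and each gave 1 library. Strain background is not given in the labels, no group without the transgene was analysed here, and GFP reports promoter use in any cell that has it, microglia or not.

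Chemokines are small secreted proteins that steer cell movement through receptors coupled to inhibitory G proteins. CC chemokines are named for a pair of adjacent cysteines near the start of the mature protein. Microglia are known for high expression of CX3CR1, the receptor of the neuronal chemokine fractalkine (CX3CL1), and for rapid induction of *Ccl3* and *Ccl4* when stimulated, also during tissue dissociation.

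The coding stretch around the cysteine pair is shown for each ligand because the 6 genes are relatives that lie close together on chromosome 11, so the first question was whether their reads can be told apart. Sequences were taken from the GENCODE M21 transcripts (build GRCm38), 5′ to 3′ on the coding strand, each within a single coding exon, and capitals mark the pair of cysteine codons.
Ccl2: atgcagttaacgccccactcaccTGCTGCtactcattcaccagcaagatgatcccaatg
Ccl12: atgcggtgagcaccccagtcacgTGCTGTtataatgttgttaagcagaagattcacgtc
Ccl3: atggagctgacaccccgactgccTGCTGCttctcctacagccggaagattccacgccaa
Ccl4: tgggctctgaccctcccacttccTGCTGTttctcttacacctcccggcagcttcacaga
Ccl6: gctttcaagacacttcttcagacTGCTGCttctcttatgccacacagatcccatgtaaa
Ccl9: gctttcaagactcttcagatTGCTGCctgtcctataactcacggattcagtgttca

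In GRCm38 these stretches lie at chr11:82036483-82036541 (*Ccl2*, plus strand), chr11:82102611-82102669 (*Ccl12*, plus), chr11:83648622-83648680 (*Ccl3*, minus), chr11:83663459-83663517 (*Ccl4*, plus), chr11:83589356-83589414 (*Ccl6*, minus) and chr11:83575896-83575951 (*Ccl9*, minus). They fall in exon 2 of 3 in *Ccl2*, *Ccl12*, *Ccl3* and *Ccl4*, and in exon 3 of 4 in *Ccl6* and *Ccl9*. The codon pair, TGT or TGC followed in frame by TGT or TGC, occurred 1 time in each of the 6 coding sequences. A pair of this kind was also present in 20.2% of the 1404 mouse genes with a coding sequence of the same length range (276 to 444 bases), so it is not specific to chemokines. The closest relatives were *Ccl3* and *Ccl4*, whose coding sequences were identical at 69.6% of 270 aligned bases, followed by *Ccl6* and *Ccl9* at 69.3% of 342 and *Ccl2* and *Ccl12* at 67.0% of 312. The longest run of bases shared exactly by any of these transcripts was 25, between *Ccl6* and *Ccl9*, against 17 for *Ccl2* and *Ccl12* and 9 for *Ccl3* and *Ccl4*. In that annotation no exon of 8 of the 9 genes overlapped another gene. *Cx3cr1* overlapped *Gm33858* on the opposite strand, which had 262 reads over both libraries.

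The libraries held 12943998 (Cd11c-active) and 13402625 (Cd11c-lineage) reads. With 1 library per group no difference below has a replicate check, and every ratio compares these 2 libraries and not the conditions. Ratios are Cd11c-active over Cd11c-lineage on the log2 scale, with 0.5 reads added and library sizes scaled by TMM (a trimmed mean of gene ratios). Against library totals this scaling moved every ratio up by 0.14, so the median of all tested genes was 0.01 with it and -0.13 without. Each ratio has a 95% counting interval (exact Clopper-Pearson), which covers counting error only. The spread between the libraries was far larger: among 1978 genes with 800 to under 1600 reads over both, the variance of the ratio was 80.2 times the counting variance. A second interval, called widened, was therefore computed from reads divided by this overdispersion and rounded to whole counts. Genes with few reads can thus share the same bounds. A widened interval is not an estimate of replicate error. Its overdispersion holds any differences between the sorted populations together with technical spread, which 1 library per group cannot separate. The same measure was 104 among genes with 3200 to under 6400 reads and 150.1 above, so widened intervals are too narrow there. It was 69.0 among genes with 200 to under 400 reads and 25.9 among those with 50 to under 100, so widened intervals are too wide at low depth. A count of 0 allows 3 independent counts, which at this overdispersion is 241 reads, or 19.5 CPM (counts on the usual per-library scale) in Cd11c-active and 17.1 CPM in Cd11c-lineage.

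Defining microglial markers were abundant in both libraries, with summed reads of *Csf1r*, *P2ry12*, *Tmem119* and *Sall1* of 99760 and 119541. The ratios of these 4 were all below 0 (median -0.16) and 0 were past 2-fold, where 1.69% of all genes with 6400 reads or more were past 2-fold in either direction. Markers of other cell types had unequal reads. In reads of Cd11c-active against Cd11c-lineage, endothelial markers summed to 7045 against 1035 (6 of 6 listed), pericyte markers to 737 against 0 (4 of 4) and border macrophage markers to 262 against 1794 (4 of 5). Retinal neuron markers gave 1526 against 2495 (6 of 6), and Müller glia and astrocyte markers 27940 against 33935 (3 of 5), of which *Glul* took 27773 and 33293. Of leukocyte markers, the monocyte list had 35 against 133 reads (2 of 5), the neutrophil list 128 against 218 (3 of 5), the lymphocyte list 55 against 1 (1 of 5) and the dendritic cell list 2339 against 3539 (2 of 5). Within these sums single markers went opposite ways. *Siglech*, which microglia also express, had 2139 against 3539 reads. *Zbtb46*, the other listed dendritic cell marker, had 200 against 0, under the 241 that a count of 0 allows. Of the monocyte markers, *Ccr2* had 35 against 0 and *Plac8* 0 against 133, both also under 241 reads. In bulk material, fewer cells of a type and less RNA per cell cannot be told apart.

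*Cx3cr1* was the most abundant transcript of the 9 in both libraries, followed per kilobase of exon by *Ccl3* and *Ccl4*. By reads in Cd11c-active, *Ccl6* (1706) was above *Ccl4* (1631). Per kilobase of exon, *Cx3cr1* stood at 663 RPKM (CPM per kilobase of exon) in Cd11c-active (widened 95% interval 604 to 727) and 599 in Cd11c-lineage (546 to 656). *Ccl4* and *Ccl3* came next, at 200.2 and 194 in Cd11c-active and at 143 and 157 in Cd11c-lineage, and their intervals overlapped in each library. *Ccl6* was lower, at 77.0 and 42.5. In Cd11c-active its interval (47.0 to 116) did not reach those of *Ccl3* (124 to 293) or *Ccl9* (7.37 to 33.6). In Cd11c-lineage it (22.0 to 70.7) overlapped that of *Cxcr4* (12.99 to 53.9), the next in order. Within Cd11c-active, *Ccl9*, *Cxcr4*, *Ccl2*, *Ccl12* and *Ccr1* stood below *Ccl6*, from 17.6 down to 2.03, and each overlapped its neighbour among these in the order.

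**Figure D1:**
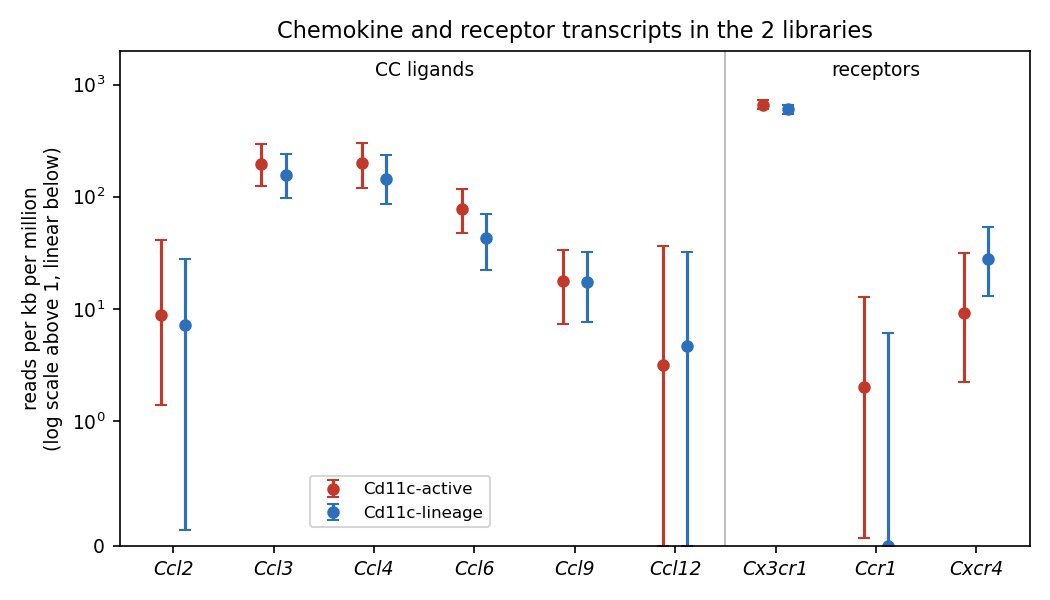
Level of each gene in the 2 libraries, in RPKM on TMM-scaled libraries (vertical axis, logarithmic above 1 and linear below). Points are the single library of each group and bars are widened 95% intervals. *Cx3cr1* is highest at 663 and 599, and the bars of the 2 groups overlap for all 9 genes.

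By the fitted ratio, 1 of the 9 genes was past 2-fold higher in Cd11c-active (*Ccr1*) and 1 past 2-fold lower (*Cxcr4*). *Ccr1* had 71 reads against 0, so it passed the minimum of 20 reads through Cd11c-active alone and the size of its fitted ratio depends on the 0.5 reads added. Over all 13037 genes with at least 20 reads, 23.3% were past 2-fold higher and 21.6% past 2-fold lower, so the members' share was not above the background. The median ratio of the 9 was 0.31, against 0.01 for all tested genes, and that of the 8 with reads in both libraries was 0.23, against 0.01 for such genes. The median of the 9 is the ratio of *Ccl3*, which was -0.03 with the dependence on transcript length and GC content taken out. Widened intervals of all 9 ratios included 0. Over all tested genes, 2.19% had a widened interval above 0 and 0.913% below. These shares depend on depth. Among genes with 20 to under 200 reads, as *Ccl12* and *Ccr1* are, 0% had one off 0 on either side. With 800 to under 1600 reads 2.67% lay above and 0.504% below, and with 6400 or more 11.4% and 6.77%.

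Among the ligands, *Ccl3* (MIP-1 alpha, a ligand of CCR1) had 1837 reads in the Cd11c-active library and 1691 in the other. Its ratio was 0.31 (counting interval 0.21 to 0.40, widened -0.60 to 1.24). *Ccl4* (MIP-1 beta, which attracts monocytes and T cells) had 1631 and 1323 reads and a ratio of 0.49 (counting 0.38 to 0.59, widened -0.59 to 1.44). These neighbouring genes were thus somewhat higher in Cd11c-active by their reads, by amounts smaller than the spread between the libraries. With the dependence of the ratio on transcript length and GC content taken out, *Ccl3* turned to -0.03 and *Ccl4* fell to 0.05. Summed, they had 3468 and 3014 reads (ratio 0.39, widened -0.30 to 1.03). Of the genes with 3200 to under 6400 reads, 23.7% lay at least as far above 0 as *Ccl3*, and of those with 1600 to under 3200 reads, 18.8% lay at least as far as *Ccl4*.

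*Ccl6*, which microglia and other myeloid cells express and which acts through CCR1, had the highest ratio among the ligands. Reads numbered 1706 against 1073 in Cd11c-lineage, which is 138 against 76.4 CPM. The ratio of *Ccl6* was 0.86 (counting 0.74 to 0.97, widened -0.19 to 1.999), a 1.81-fold difference. In its read range, 7.32% of genes lay at least as far above 0. Its neighbour and closest relative *Ccl9*, another CCR1 ligand, had 662 and 738 reads. The *Ccl9* ratio was 0.03 (counting -0.12 to 0.18, widened -1.56 to 1.56) and turned to -0.11 with library totals. The difference between the ratios of *Ccl6* and *Ccl9* was not tested.

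*Ccl2* and *Ccl12*, ligands of the monocyte receptor CCR2, were near the lower end of detection. *Ccl2* was read 125 times in Cd11c-active and 115 times in Cd11c-lineage, with a ratio of 0.31 (counting -0.07 to 0.68, widened -3.08 to 7.07). *Ccl12* had 21 and 35 reads and a ratio of -0.54 (counting -1.40 to 0.27), with no bound on either side once widened. With the overdispersion of genes of their own depth the intervals were -3.60 to 3.97 for *Ccl2* and -6.11 to 6.48 for *Ccl12*. With the dependence on transcript length and GC content taken out, the ratio was 0.09 for *Ccl2* and -0.93 for *Ccl12*. At this depth a difference in either gene was not detectable. Summed over the 6 ligands there were 5982 and 4975 reads, a ratio of 0.45 (counting 0.40 to 0.51, widened -0.04 to 0.97), and without *Ccl3*, the ligand with the most reads, 0.52 (widened -0.09 to 1.16).

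**Figure D2:**
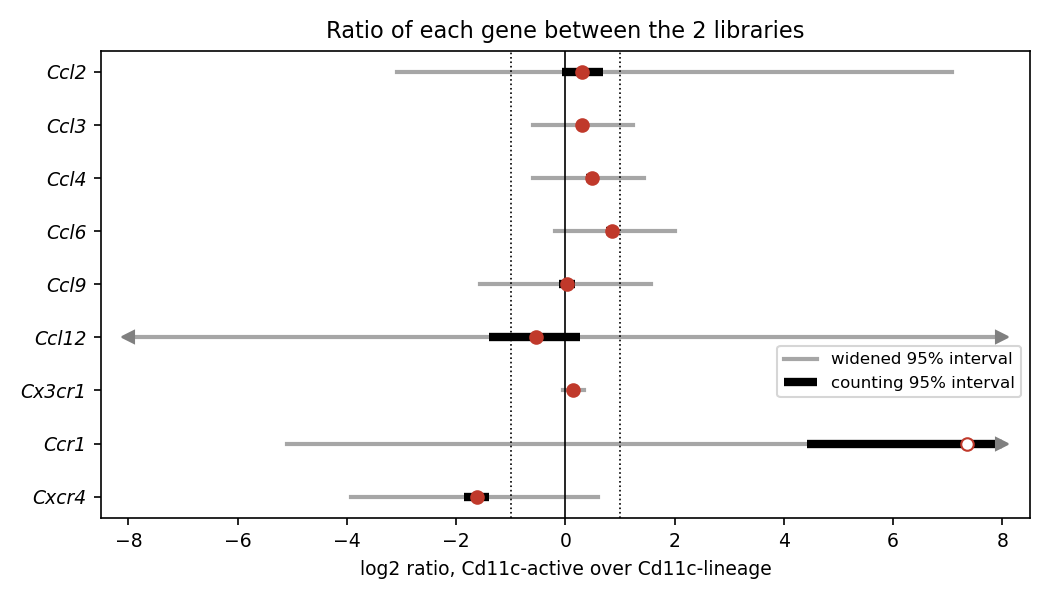
Log2 ratio of Cd11c-active over Cd11c-lineage for each gene (points), with counting (black) and widened (grey) 95% intervals. Arrows mark intervals without a bound within the plotted range, the open point of *Ccr1* depends on the 0.5 reads added because Cd11c-lineage had 0, and dotted lines mark 2-fold. The grey bar of every gene crosses 0.

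Most ligands have short transcripts, and the ratio of all genes varied with transcript length. Among genes with at least 1000 reads, the median ratio was 0.62 in the 34 with a longest transcript of under 800 bases, 0.34 in the 251 of 800 to under 1600 bases, and 0.10 in the 1213 of 1600 to under 3200 bases. Longer transcripts had medians of -0.06 (3200 to under 6400 bases, 2218 genes) and -0.20 (6400 bases or more, 896 genes). *Ccl3* (766 bases) and *Ccl4* (660 bases) were below the median of their length class. *Ccl6* (1440 bases) was above the third quartile of its class, 0.76, and *Ccl9* (3006 bases) was near the median of its own. With the dependence on length and GC content taken out, *Ccl6* stood at 0.70 and the summed ligands at 0.19. The length classes were set after the data were seen.

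**Figure D3:**
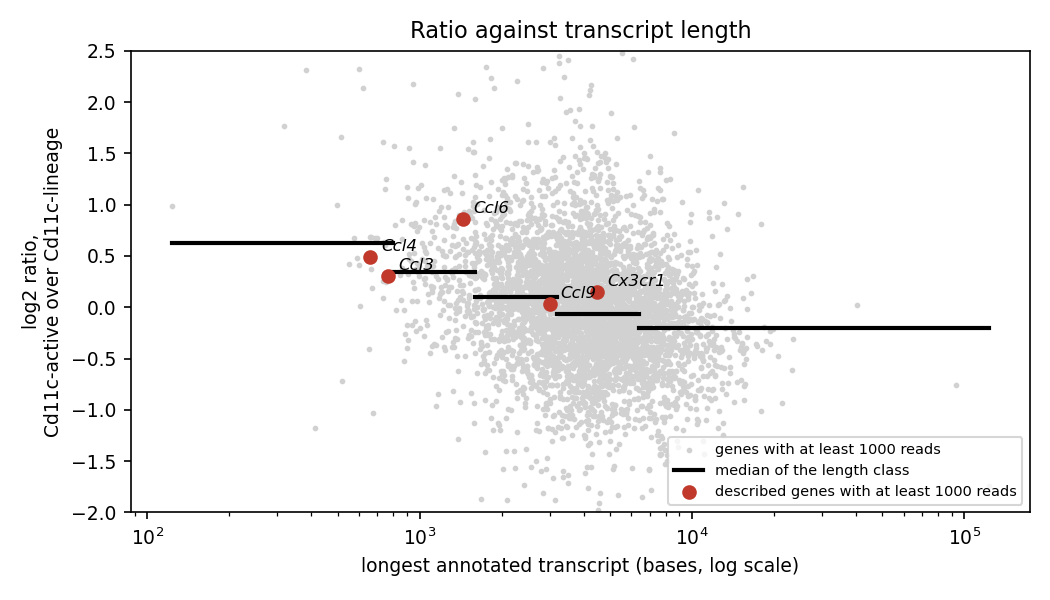
Log2 ratio against the longest annotated transcript (logarithmic axis, bases) for genes with at least 1000 reads (grey), with the median of each length class (black lines) and the described genes of that depth (red). *Ccl3* and *Ccl4* lie below the median of the shortest class, 0.62, and *Ccl6* above that of the next, 0.34. The 32 genes with ratios beyond -2 or 2.5 are outside the plotted range.

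Because *Ccl3* and *Ccl4* are early response genes, the 21 immediate early genes were read beside them. They were abundant in both libraries, with summed levels of 16049 CPM in Cd11c-active and 13578 CPM in the other library (ratio 0.24, widened 0.16 to 0.32). At the depth of this sum the widened interval is too narrow, and library totals would lower the ratio by 0.14. The dependence on transcript length and GC content was not taken out for these genes. Their median ratio was 0.24, with 16 above and 5 below 0, and 1 of 21 was past 2-fold. Of the 21, 19 had at least 3200 reads, and of all genes of that depth 1.72% were past 2-fold higher and 0.891% lower, against 23.3% and 21.6% at any depth. That gene, *Jund*, had 5020 and 2535 reads (ratio 1.17, widened 0.53 to 1.83). Widened intervals lay above 0 for 6 of the 21 and below 0 for none. These 6 were among the 16 with 6400 reads or more, a depth at which 11.4% of all genes had a widened interval above 0 and 6.77% below. Besides *Jund* they were *Klf2* (ratio 0.70, widened 0.09 to 1.30), *Junb* (0.68, widened 0.37 to 1.01), *Ier5* (0.66, widened 0.23 to 1.12), *Fos* and *Egr1*, all read deeply enough that these intervals are too narrow. *Fos* had 28466 and 25815 reads (ratio 0.33, widened 0.11 to 0.55), and *Egr1* had 36763 and 35532 (ratio 0.24, widened 0.05 to 0.43). Among the remaining genes, *Atf3* (5859 and 6587 reads) was at 0.02 and *Nfkbia* (6372 and 5537) at 0.39. The part of cell handling in the chemokine levels was not tested.

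Among the receptors, *Cx3cr1* took 36882 reads of Cd11c-active and 37938 of Cd11c-lineage, 0.285% and 0.283% of all reads. Its ratio was 0.15 (counting 0.13 to 0.17, widened -0.04 to 0.33). With the overdispersion of genes of its own depth the interval was -0.11 to 0.41. With library totals the ratio was 0.01, which is also the log2 fold change in the authors' deposited table. Both intervals lay well inside 2-fold in either direction.

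The fractalkine side was read from a list of genes outside the 9. *Cx3cl1*, its gene, had 38 and 0 reads, under the 241 that a count of 0 allows. *Adam10* and *Adam17*, proteases that shed membrane-bound fractalkine, had 7504 and 10277 reads (ratio -0.27, widened -0.66 to 0.14) and 3917 and 6495 reads (ratio -0.54, widened -1.08 to -0.01). Neither was past 2-fold, where 1.69% of all genes with 6400 reads or more were. At that depth 6.77% of all genes had a widened interval below 0, and these widened intervals are too narrow. *Dpp4*, a protease that trims chemokines, was not among the listed genes.

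*Cxcr4*, the receptor of CXCL12 that retains and guides myeloid, endothelial and neural precursor cells, had 203 reads against 714 in Cd11c-lineage, at 16.4 against 50.8 CPM. The ratio was -1.63 (counting -1.86 to -1.40, widened -3.92 to 0.60), a 3.09-fold lower level in Cd11c-active. It was thus the member farthest below 0, yet with 917 reads over both libraries its widened interval reached above 0. Among the 1984 genes with 800 to under 1600 reads, 9.12% were past 2-fold lower and 2.07% lay at least as far below 0 as *Cxcr4*. Its ratio lay between -1.76 (library totals) and -1.60 (a prior of 5 reads) in all alternatives, and the authors' deposited table gives -1.76. Border macrophage markers were lower in Cd11c-active too, with 21.2 and 128 CPM summed and a ratio of -2.59 (widened -5.07 to -0.95). Of these, *Lyve1*, *Cd163* and *F13a1* had 0 reads in Cd11c-active, *Mrc1* had 262 and 1230, and *Pf4* was not listed. Endothelial markers went the other way (571 and 73.7 CPM, ratio 2.95, widened 2.10 to 3.91), with *Cldn5*, *Flt1* and *Tek* at 0 reads in Cd11c-lineage. The part of either cell type in the *Cxcr4* reads was not tested.

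*Ccr1*, a receptor of CCL3, CCL6 and CCL9, had 71 reads in Cd11c-active against 0 in Cd11c-lineage. Since 71 reads are fewer than the 241 that a count of 0 allows, no fold is given. With the overdispersion of genes of its own depth, 50 to under 100 reads, a count of 0 allows 77.8 reads, close to the 71 observed. Of the 1395 genes with 50 to under 100 reads, 33.9% had 0 reads in Cd11c-lineage and 37.1% had 0 in Cd11c-active, so a gene at 0 in either library was common at this depth. A difference in *Ccr1* between the libraries was therefore not detectable at this depth. Summed over the 3 receptors the ratio was 0.13 (widened -0.06 to 0.32), nearly all of it *Cx3cr1*, and it turned to -0.01 with library totals. Without *Cx3cr1* the sum was 274 against 714 reads (ratio -1.19), with the widened interval of *Cxcr4* because both round to the same counts.

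The rest of the chemokine system was taken from a list of 52 further ligands, receptors and atypical (scavenging) receptors. Of these, 15 were listed with at least 20 reads and 37 were not in the table. Past 2-fold were 9 higher and 3 lower in Cd11c-active, but 7 of the 9 had 0 reads in Cd11c-lineage and 1 of the 3 had 0 in Cd11c-active. Over all tested genes the shares were 23.3% and 21.6%, and they were larger at low depth. In both directions together, 97.1% of genes with 20 to under 50 reads, 88.5% with 50 to under 100 and 74.6% with 100 to under 200 were past 2-fold. Of the 15 genes, 9 had under 200 reads, and those 9 were all past 2-fold. The 7 with reads in both libraries had a median of 0.25, with 4 above and 3 below 0, against 0.01 for the 10256 tested genes with reads in both. Over all 15 the median was 2.38, the ratio of *Cxcl10*, and the 7 genes with 0 reads in Cd11c-lineage lay above it.

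*Cxcl10*, an interferon-induced ligand of CXCR3, was the chemokine with the largest ratio among those with reads in both libraries. Its reads were 798 against 174 in Cd11c-lineage, at 64.6 against 12.4 CPM. Its ratio was 2.38 (counting 2.15 to 2.63, widened 0.28 to 5.74), and the widened interval did not include 0. In its read range 1.56% of 1984 genes lay at least as far above 0. *Cxcl16*, a membrane-bound chemokine that also acts as a scavenger receptor, had 924 and 408 reads and a ratio of 1.36 (counting 1.20 to 1.54, widened -0.16 to 3.31). *Cxcl2*, a neutrophil-attracting ligand, had 199 and 346 reads (ratio -0.61, widened -4.28 to 1.99). Of the receptors of these ligands, *Cxcr3* and *Cxcr6*, which bind CXCL10 and CXCL16, were not among the listed genes. *Cxcr2* had 0 and 101 reads, under the 241 that a count of 0 allows.

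*Ccrl2*, an atypical receptor that binds chemerin, had 661 and 633 reads (ratio 0.25, widened -1.43 to 1.80). *Ccr6* had 121 and 98 reads (ratio 0.49, widened -3.08 to 7.07).

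Other genes of the system had few reads. *Ccl24* (28 and 108 reads, ratio -1.74) and *Ccl25* (66 and 176, ratio -1.22) were lower in Cd11c-active, with widened intervals that included 0. With 0 reads in Cd11c-lineage, *Ccl7* had 41, *Cxcl12* 51, *Cxcl14* 68, *Ccr2* 35, *Ackr2* 112 and *Ackr3* 36 in Cd11c-active, all under the 241 reads that a count of 0 allows. *Cxcl12* and *Ackr3*, the ligand of CXCR4 and its scavenger, are known from vessels and stroma, and endothelial and pericyte markers were higher in the same library. Their part in these reads was not tested.

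**Figure D4:**
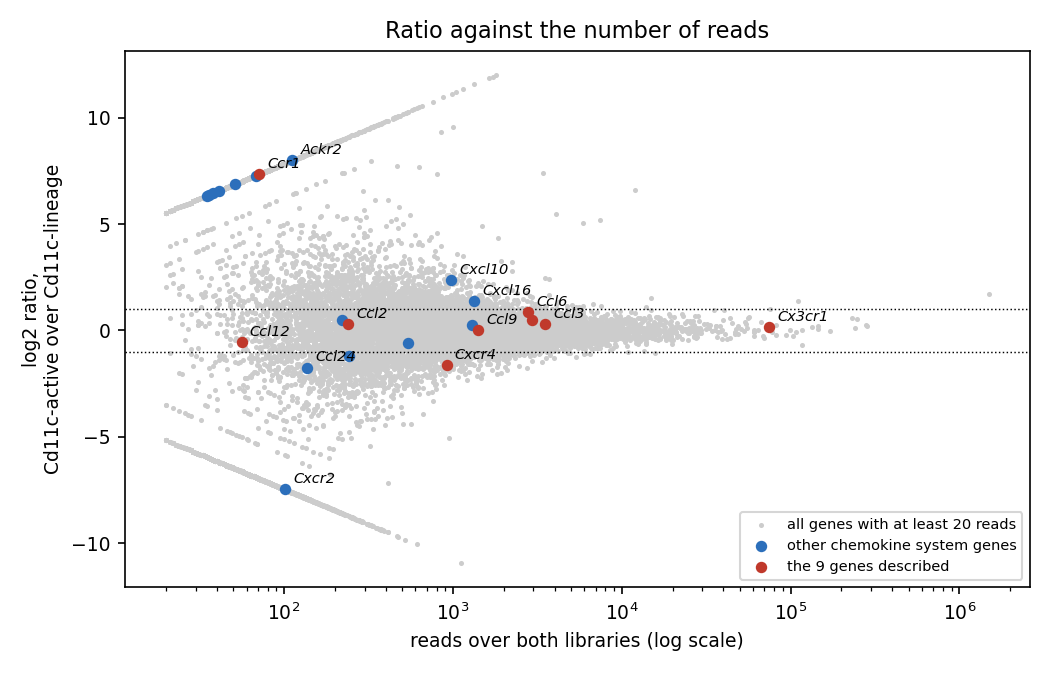
Log2 ratio of Cd11c-active over Cd11c-lineage against reads over both libraries (logarithmic axis) for the 13037 genes with at least 20 reads (grey), the 9 described genes (red) and the 15 other chemokine system genes (blue). The straight outer bands are genes with few or 0 reads in either library, where *Ccr1*, *Ackr2* and *Cxcr2* lie, and dotted lines mark 2-fold.

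Signalling downstream of the receptors was described from a list of 38 genes, of which 37 were measured and *Rgs18* was not listed. Their median ratio was 0.04, with 21 above and 16 below 0, and 2 were past 2-fold higher and 3 past 2-fold lower, against 23.3% and 21.6% of all tested genes. At least 1600 reads were found for 31 of the 37, and 0 of these were past 2-fold, where 3.23% of all genes of that depth were past 2-fold higher and 2.47% lower. The 10 with the most reads had ratios between -0.25 and 0.49. They include *Gnai2*, the main inhibitory G protein subunit of chemokine receptors, with 10785 and 11390 reads (ratio 0.11, widened -0.24 to 0.46). *Tln1*, which activates integrins, had 21686 and 27412 reads (ratio -0.15, widened -0.39 to 0.08), and the Rac activators *Prex1*, *Vav1* and *Dock2* were at 0.04, 0.04 and -0.17. *Rac1* was at 0.49 (widened -0.005 to 0.97), *Rhoa* at 0.29, *Fermt3* at 0.16, *Cdc42* at 0.09 and *Rap1b* at -0.25. Past 2-fold with at least 200 reads were *Rgs19* (429 and 182 reads, ratio 1.42), *Grk3* (236 and 599, ratio -1.16), *Gng5* (59 and 291, ratio -2.11) and *Gng10* (296 and 0), and *Rasgrp2* with 0 and 20 reads made up the count. The widened intervals of *Rgs19*, *Grk3*, *Gng5* and *Gng10* included 0, and *Gng10* passed the minimum of 20 reads through Cd11c-active alone.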

How the data were processed

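Per the submitters' processing notes, the deposited values involved cutadapt 3.5, STAR 2.7.9a, featureCounts 1.6.3, edgeR 4.0.16 and the build GRCm39. Total RNA was depleted of ribosomal RNA and made into stranded libraries, per the labels' protocols. Strand use in counting and duplicate handling are not given in the sources used here. The authors deposited raw counts per gene (smallest sum over both libraries 6) and a log2 fold change, used only where named. Columns of unmapped samples numbered 0.

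TMM factors came from edgeR 4.0.16 in R 4.3.3 (0.954 and 1.05). With 1 library per group its tests could not be fitted, so ratios carry intervals and no p-value. Genes needed 20 reads over both libraries. Overdispersion was the robust variance of the ratio over the median counting variance. The procedure was tested on simulated data in which overdispersion did not vary with depth, unlike in these data. Lengths, GC content and sequences are from GENCODE M21 (GRCm38; 13499 genes matched), and levels used the union of exons. Python 3.11.15, numpy 2.4.6, scipy 1.17.1, pandas 2.3.3, Biopython 1.88 and matplotlib 3.10.9 were used.

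The 9 genes and the lists were chosen with earlier results of these data known. All 9 were named, as were the other listed ligands, receptors and atypical receptors, except that some items of the lists are not reported here and were left out of the list counts. Of the signalling genes, the 10 with most reads and those past 2-fold with at least 200 reads were named. Other scalings, priors, minimums, thresholds and a trend removal were tried. Reads are not independent molecules, so counting intervals cover counting error only.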

Additional observations from a re-analysis of the deposited data

How the results depend on the processing

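For the 8 genes whose widened interval has a bound, all 40 ratios under other scalings, a prior of 5 reads and the removal of the trend with length and GC content stayed inside it. Library totals shifted every gene alike by 0.14, while intervals were as wide as -3.08 to 7.07 (*Ccl2*). Staying inside was therefore close to fixed in advance and says little about stability. *Ccl4*, for example, stayed inside while falling from 0.49 to 0.05 with the trend removed. The overdispersion of a gene's own read range changes its interval only. Ratios that crossed 0 were those of *Ccl9* (-0.11, library totals), *Ccl3* (-0.03, trend removed) and the summed receptors (-0.01, library totals). With a minimum of 200 reads, 0 of the 7 members left were past 2-fold higher and 1 lower. Of the 6 other chemokine genes left, 2 were higher and 1 lower, and of 8951 genes, 1262 were higher and 1091 lower. This minimum tests fewer genes and leaves out those with few reads, which are past 2-fold more often (97.1% of genes with 20 to under 50 reads). At a log2 threshold of 0.5, 2 of 9 members were higher and 2 lower, against 4254 and 4122 of all 13037 genes. No paired analysis was possible because each group has 1 library, and for the same reason no library could be left out. Depth limits *Ccl2*, *Ccl12* and *Ccr1*.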
